A study of Mus musculus with 27 samples.

Results

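The glycerolipid synthesis genes described here are Gpam, Agpat2, Agpat3, Lpin1, Lpin2, Mogat1, Dgat1 and Dgat2, which encode enzymes on the way from glycerol 3-phosphate or monoacylglycerol to triacylglycerol. They were chosen by name, and 18 of the 45101 probe sets of the Affymetrix mouse genome array carry exactly 1 of these 8 symbols, out of 18194 genes that have such a probe set. The arrays measured liver RNA of male C57BL/6 mice, bought at 10 weeks of age, that ate 1 of 9 diets for 3 weeks and were killed in the morning. Each diet had 3 mice (n = 3), and RNA of every mouse went on its own array. The question was how each diet changed hepatic gene expression relative to a purified diet, AIN-93M, the control. The other diets were lab chow, which is made of natural ingredients, a diet with 60% fructose, a high-fat diet, and a Western diet with 42% of its energy from fat and much saturated fat and sucrose. An atherogenic diet combined fat and sucrose with cholesterol and cholic acid, and a diet rich in sucrose was deficient in essential fatty acids (EFA-deficient). A diet with 7% sunflower oil was low in n-3 fatty acids (low n-3), and its arrays were grouped by their description, because their titles and diet tags name a DHA supplement instead. Mice on diet restriction received 75% of the lab chow that others ate ad libitum, so a difference from control can also come from the chow itself, and lab chow is their matched diet.

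Triacylglycerol is made in hepatocytes by adding fatty acids to glycerol 3-phosphate one after another. Gpam, a glycerol-3-phosphate acyltransferase of the outer mitochondrial membrane, adds the first, and Agpat2 and Agpat3 belong to the lysophosphatidate acyltransferases that add the next and yield phosphatidate. The lipins Lpin1 and Lpin2 are phosphatidate phosphatases that release diacylglycerol, and lipin 1 is also known as a nuclear partner of PPARalpha and PGC-1alpha. Dgat1 and Dgat2 turn diacylglycerol into triacylglycerol, and Mogat1 makes diacylglycerol from monoacylglycerol. The known regulators of this pathway in liver include the lipogenic factors SREBP-1c and ChREBP and signals of fasting such as glucocorticoids.

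The 250 bases before the start of transcription are shown for the 4 genes whose diet means spanned the widest range (Gpam, Agpat2, Lpin1 and Lpin2), so that the promoter of each gene can be read beside its values. The windows were copied from RefSeq on mouse build GRCm38.p6, which holds 9 windows for 6 of the 8 genes and no entry matched to Dgat1 or Dgat2. Each is written 5′ to 3′ on the strand of the gene, and capitals mark motifs found by letters on either strand, namely CACGTG (E-box), CACCCCA (sterol regulatory element-like), CCAAT (the box of that name), AGGTCA (nuclear receptor half-site), ACGTCA (cAMP response element-like) and GGGCGG (GC box). Gpam has windows at chr19:55127239-55127488 and chr19:55099478-55099727 on the minus strand, Agpat2 at chr2:26604418-26604667 on the minus strand, Lpin1 at chr12:16610967-16611216 on the minus strand, and Lpin2 has its first of 3 at chr17:71183282-71183531 on the plus strand.
Gpam, window 1: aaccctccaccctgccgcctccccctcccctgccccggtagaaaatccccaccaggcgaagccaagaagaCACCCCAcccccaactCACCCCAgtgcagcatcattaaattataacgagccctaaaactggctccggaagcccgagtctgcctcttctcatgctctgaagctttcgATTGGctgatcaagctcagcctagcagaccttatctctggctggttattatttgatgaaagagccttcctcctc
Gpam, window 2: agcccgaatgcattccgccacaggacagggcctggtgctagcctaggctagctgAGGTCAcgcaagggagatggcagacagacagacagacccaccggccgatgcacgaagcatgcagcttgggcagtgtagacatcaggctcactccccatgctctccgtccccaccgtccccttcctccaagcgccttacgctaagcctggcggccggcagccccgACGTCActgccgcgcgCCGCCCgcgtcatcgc
Agpat2: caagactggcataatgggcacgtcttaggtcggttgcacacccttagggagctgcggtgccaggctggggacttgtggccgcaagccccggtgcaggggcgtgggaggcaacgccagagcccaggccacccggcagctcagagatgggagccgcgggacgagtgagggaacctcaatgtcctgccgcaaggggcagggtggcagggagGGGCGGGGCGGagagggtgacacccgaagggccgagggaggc
Lpin1: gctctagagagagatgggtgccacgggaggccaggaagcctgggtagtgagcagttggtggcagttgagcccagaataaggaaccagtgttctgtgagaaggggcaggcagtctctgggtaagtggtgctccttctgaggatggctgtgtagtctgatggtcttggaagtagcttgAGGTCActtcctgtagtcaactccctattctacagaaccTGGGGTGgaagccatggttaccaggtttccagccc
Lpin2, window 1: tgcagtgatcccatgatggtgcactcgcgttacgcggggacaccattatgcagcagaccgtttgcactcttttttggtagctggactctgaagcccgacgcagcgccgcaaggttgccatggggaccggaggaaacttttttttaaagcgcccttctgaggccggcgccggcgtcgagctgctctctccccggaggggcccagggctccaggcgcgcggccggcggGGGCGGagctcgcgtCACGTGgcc

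The first Gpam window held the sterol regulatory element-like motif at 180 and 164 bases before the start and CCAAT on the other strand at 74 bases. The second held the nuclear receptor half-site at 196 bases, the cAMP response element-like motif at 32 bases and a GC box on the other strand at 16 bases. The Agpat2 window held 2 copies of the GC box that share a base. The Lpin1 window held the nuclear receptor half-site at 74 bases and the sterol regulatory element-like motif, on the other strand, at 35 bases. The first Lpin2 window held a GC box at 24 bases and the E-box at 9 bases. Of 32851 such windows, 6.68% held the sterol regulatory element-like motif, 14.02% the nuclear receptor half-site, 6.02% the E-box, 6.47% the cAMP response element-like motif, 33.8% CCAAT and 32.7% the GC box, and the windows of Agpat3 and Mogat1 held none of these letters. These matches describe the sequence and were not tested for use in liver.

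The values are log2 intensities, normalized by the authors, and the medians of kept probe sets lay between 8.22 and 8.38 on the 27 arrays. A probe set was kept when its mean exceeded log2(100), here called the detection level, in at least 1 diet. Averaging the kept probe sets of each symbol left 6478 genes. The 9 hepatocyte markers measured were above the detection level on each array, and the bile duct and exocrine pancreas markers were below it on every array. In whole liver, fewer cells of a type and less RNA per cell cannot be told apart. Of the 18 probe sets, 14 were kept, and 7 of the 8 genes had at least 1, with Mogat1 the exception. Levels on an array depend on the probes, so values are compared between diets and not between genes.

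Across the diets, Lpin1 varied most among the 7 genes, by 22.4-fold between its highest and lowest diet means, followed by Lpin2 at 9.28-fold, Gpam at 4.83-fold and Agpat2 at 3.97-fold. Dgat2 spanned 1.52-fold, Agpat3 1.39-fold and Dgat1 1.21-fold. Diet restriction held the highest mean of Lpin1, Lpin2, Dgat1 and Dgat2 and the lowest of Agpat2. Each diet was tested against control in limma, and a gene was called at an adjusted p under 0.05, with p adjusted over all genes and 8 diets together.

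**Figure D1:**
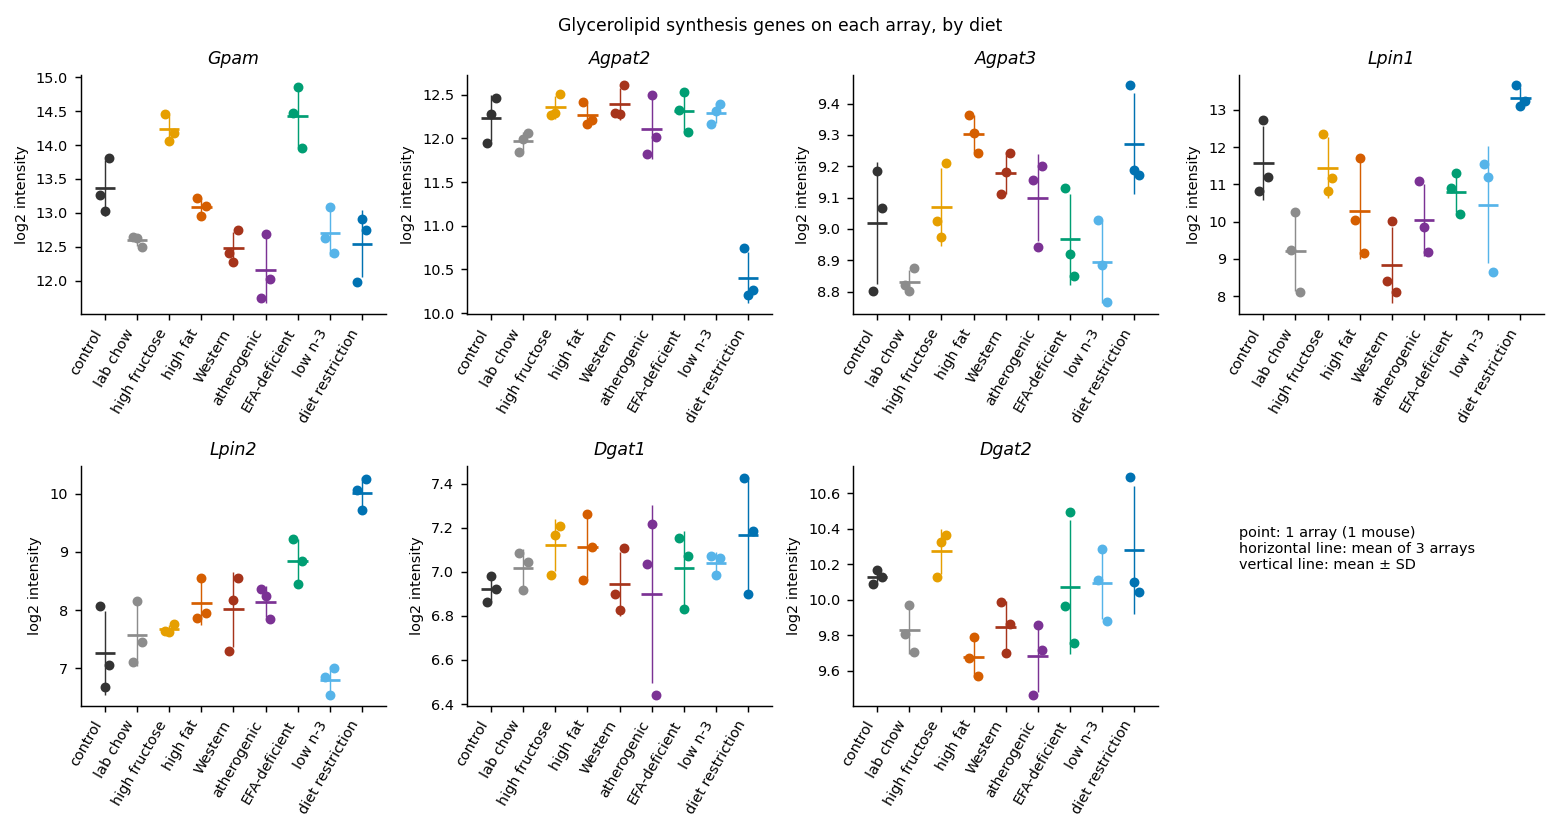
Log2 intensity (vertical axis) of the 7 genes with a kept probe set on each of 27 arrays in 9 diets, with points for arrays, horizontal lines for diet means and vertical lines for the SD. The 3 diet restriction arrays lie apart from all others for Agpat2 (10.21 to 10.74), Lpin1 (13.09 to 13.65) and Lpin2 (9.72 to 10.26).

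On lab chow, limma called none of the 7 genes in either direction, where 2.02% of all genes were called higher and 2.19% lower, and 2 of the 7 had an unadjusted p under 0.05. On the high fructose diet 1 gene was higher and 0 lower, where 1.17% and 2.73% of all genes were. The high fat diet gave no call in limma, where 6.00% of genes were called higher and 3.33% lower, and 3 of the 7 had an unadjusted p under 0.05. On the Western diet 0 were higher and 2 lower, against 4.31% and 4.48% of genes, and on the atherogenic diet 0 were higher and 1 lower, against 9.03% and 5.88%. The EFA-deficient diet gave 2 higher and 0 lower, against 3.04% and 2.47% of genes. The low n-3 diet gave no call in limma, where 0.340% of genes were called higher and 0.726% lower, and 1 of the 7 had an unadjusted p under 0.05. The share of all genes with an unadjusted p under 0.05 is not given here. Counts of the 7 genes at that level therefore have no share to be read against. On diet restriction 1 of 7 was higher and 1 of 7 lower, or 14.3% each way, which is close to the 13.5% and 16.0% of all genes. Dunnett's test per gene, which the study also used, called as many genes as limma on each of the 8 diets. With Benjamini-Hochberg adjustment over genes and diets added to it, 2 genes passed on diet restriction and 0 on each of the other 7 diets. The median log2 difference of the 7 genes lay between -0.27 on lab chow and 0.25 on diet restriction, and that of all genes between -0.05 and 0.03. All 8 comparisons share the same 3 control arrays. The share of all genes whose arrays do not overlap control is not given here, so statements below on such arrays are descriptions and add no support to a call.

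**Figure D2:**
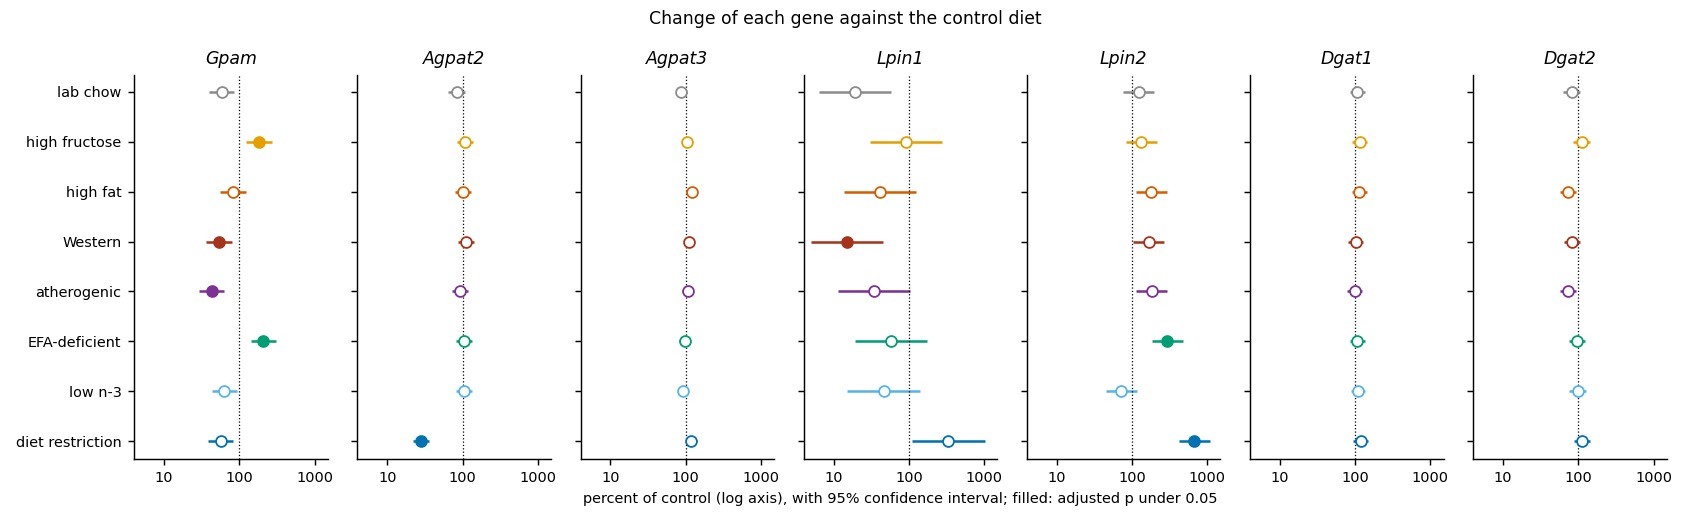
Percent of control (horizontal log axis) for 7 genes on 8 diets, with 95% confidence intervals, n = 3 arrays per diet and filled points for adjusted p under 0.05. Filled points stand to the right of 100 for Gpam (high fructose, EFA-deficient) and Lpin2 (EFA-deficient, diet restriction), and to the left for Gpam (Western, atherogenic), Lpin1 (Western) and Agpat2 (diet restriction).

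Gpam rose on the high fructose and EFA-deficient diets and fell on the Western and atherogenic diets. The log2 intensities were 13.26, 13.02 and 13.82 on control, 14.47, 14.06 and 14.17 on the high fructose diet, and 14.47, 14.86 and 13.95 on the EFA-deficient diet. All arrays of both diets lay above the highest control array. Gpam was 182% of control on the high fructose diet (95% confidence interval 124 to 268, adjusted p = 0.045) and 208% on the EFA-deficient diet (141 to 307, adjusted p = 0.014).

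On the Western diet Gpam was at 12.40, 12.27 and 12.75, and on the atherogenic diet at 11.74, 12.69 and 12.03, so that all 6 arrays lay below the lowest control array. It was 53.8% of control on the Western diet (36.6 to 79.2, adjusted p = 0.038) and 43.1% on the atherogenic diet (29.3 to 63.5, adjusted p = 0.0052). The order of diet means ran from EFA-deficient and high fructose, whose arrays overlapped each other and no other diet, through control to atherogenic, and from control downwards each diet overlapped the next.

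The calls for Gpam on the high fructose and Western diets were lost in 9 of 20 alternatives each, among them the fit of the compared groups alone (adjusted p = 0.079 and 0.082). On high fructose the call was lost without control replicate 1 or 2 or any 1 of the 3 high fructose arrays (adjusted p from 0.054 to 0.18), and on Western without control replicate 1 or 3 or Western replicate 1 or 2 (0.063 to 0.19). The EFA-deficient call held in 16 of 20 alternatives and was lost without control replicate 2 (0.079) or EFA-deficient replicate 2 (0.073), and the atherogenic call held in 18 of 20, with the adjusted p at 0.05 after rounding when no filter was used. On lab chow Gpam was at 12.64, 12.63 and 12.50 and on diet restriction at 11.98, 12.91 and 12.74, below each control array, but neither diet passed the threshold (58.4% of control, adjusted p = 0.073, and 56.5%, adjusted p = 0.056). Diet restriction passed without control replicate 2 (0.045) or without its own replicate 2 (0.034). The low n-3 arrays, at 12.62, 13.08 and 12.41, overlapped control (63.2%, 42.9 to 93.0, adjusted p = 0.13), as did the high fat arrays at 13.21, 12.95 and 13.11.

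The Gpam values rest on 1 kept probe set, and a further one that also carries the symbol stayed below the detection level on all 27 arrays. The beta-actin 3′ minus 5′ difference, a measure of RNA integrity, was 2.72 to 3.09 on the Western arrays and 3.08 to 3.60 on control. The same difference for Gapdh was 0.82 to 0.98 on Western and 1.04 to 1.38 on control. The high fat arrays lay below control on both, at 2.52 to 2.80 for beta-actin and 0.78 to 0.94 for Gapdh. With the beta-actin difference as a covariate, chosen after seeing the data, the Gpam call was lost on the Western (adjusted p = 0.089) and high fructose diets (adjusted p = 0.061). The Gapdh difference was not used as a covariate. The 10 Kupffer cell markers, of which 7 were kept, summed to intensities of 8528 to 15315 on the atherogenic arrays and 3461 to 4403 on control, with 3 of 7 called higher, and their part in the Gpam value was not tested.

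Agpat2, the member of its family known for lipodystrophy when lost, fell on diet restriction. Its arrays were at 10.74, 10.21 and 10.27, and at 11.95, 12.28 and 12.47 on control. The 24 arrays of the other 8 diets lay between 11.82 and 12.61, so that no array of another diet reached down to diet restriction. Agpat2 was 28.2% of control (22.05 to 36.1, adjusted p = 2.4e-07), and the call held in 20 of 20 alternatives. The other 8 diet means, from Western down to lab chow, each overlapped the next, and the 7 other diets ranged between 83.2% of control on lab chow and 112% on the Western diet with no call. Agpat2 has 1 probe set.

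Some cell type markers were also called on diet restriction. The summed intensities of the adipocyte markers, most of them from Car3, were 24725 to 39380 on diet restriction and 63533 to 75571 on control. Fabp4, the other kept adipocyte marker, did not fall. Its median log2 intensity was 8.45 on diet restriction and 8.38 on control. Adipoq, Lep and Retn were at the lowest value on all arrays of both diets. The fall of the sum is therefore that of Car3, and a change in adipocytes was not tested. Of all genes, 16.0% were called lower on this diet and 13.5% higher. Of the kept markers, 1 of 2 was called lower for adipocytes and 1 of 7 for Kupffer cells. For sinusoidal endothelium it was 1 of 8 and for stellate cells 1 of 6, and 1 of 9 hepatocyte markers was called higher. The part of these markers in the values of Agpat2 and Lpin2 on this diet was not tested.

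Agpat3, which also acylates other lysophospholipids, moved little. Control arrays were at 8.80, 9.18 and 9.07 and the high fat arrays at 9.36, 9.31 and 9.24, each above control, and the difference did not pass the threshold (122%, 104 to 143, adjusted p = 0.11). The 3 kept probe sets differed: on diet restriction they ranged from 91.2% to 151% of control, and 1 of 3 was called higher. The probe set called higher on the high fat diet and the one called lower on lab chow were the other 2. No 2 neighbours in the order of diet means separated.

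Lpin1 stood out for its spread between mice as well as between diets. On control it was at 10.83, 12.71 and 11.19, on lab chow at 9.23, 10.26 and 8.12, and on the Western diet at 8.40, 10.02 and 8.11. All arrays of both diets lay below the lowest control array. Lpin1 fell to 15.0% of control on the Western diet (4.97 to 45.2, adjusted p = 0.026), and was 19.3% on lab chow (6.39 to 58.1, adjusted p = 0.053).

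On diet restriction Lpin1 was at 13.65, 13.09 and 13.24, above every array of every other diet. Against control it was 336% (112 to 1014), and the adjusted p of 0.16 did not pass the threshold. The remaining diets overlapped control, with 12.36, 10.81 and 11.17 on high fructose, 10.89, 11.31 and 10.22 on EFA-deficient and 11.08, 9.85 and 9.20 on atherogenic.

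The pooled SD of Lpin1 within diets was 1.02 on the log2 scale, and only 0.556% of the 6478 genes had a larger one. The low n-3 arrays, at 11.53, 11.19 and 8.65, differed by up to 7.37-fold between mice of 1 diet, and the high fat arrays, at 10.03, 11.71 and 9.16, by 5.84-fold. Diet restriction had the smallest spread, at 1.47-fold. The confidence intervals of Lpin1 are wide for this reason, and a percent of control under 100 without a call, such as 34.5% on the atherogenic diet (11.4 to 104) or 41.2% on the high fat diet (13.7 to 124), is not shown to differ or to equal control.

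Both Lpin1 probe sets were called lower on the Western diet, at 13.3% and 16.9% of control, and 1 of them also on lab chow. The gene call on the Western diet was lost in 7 of 20 alternatives. These include the covariate for the beta-actin difference (adjusted p = 0.072), leaving out control replicate 2 (0.13), Western replicate 1 (0.074) or Western replicate 3 (0.089), and the fit of the compared groups alone (0.068). On lab chow the replicate block, a filter at log2(200), array weights and leaving out lab chow replicate 2 each brought Lpin1 past the threshold (adjusted p = 0.014, 0.049, 0.02 and 0.033).

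Lpin2 rose on diet restriction and on the EFA-deficient diet. Control arrays were at 8.07, 6.67 and 7.06, EFA-deficient arrays at 9.21, 8.44 and 8.85, and diet restriction arrays at 10.07, 9.72 and 10.26. The diet restriction arrays lay above all others, and the EFA-deficient arrays above each array of control. Lpin2 was 671% of control on diet restriction (417 to 1081, adjusted p = 7.7e-06) and 296% on the EFA-deficient diet (184 to 477, adjusted p = 0.0036).

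**Figure D3:**
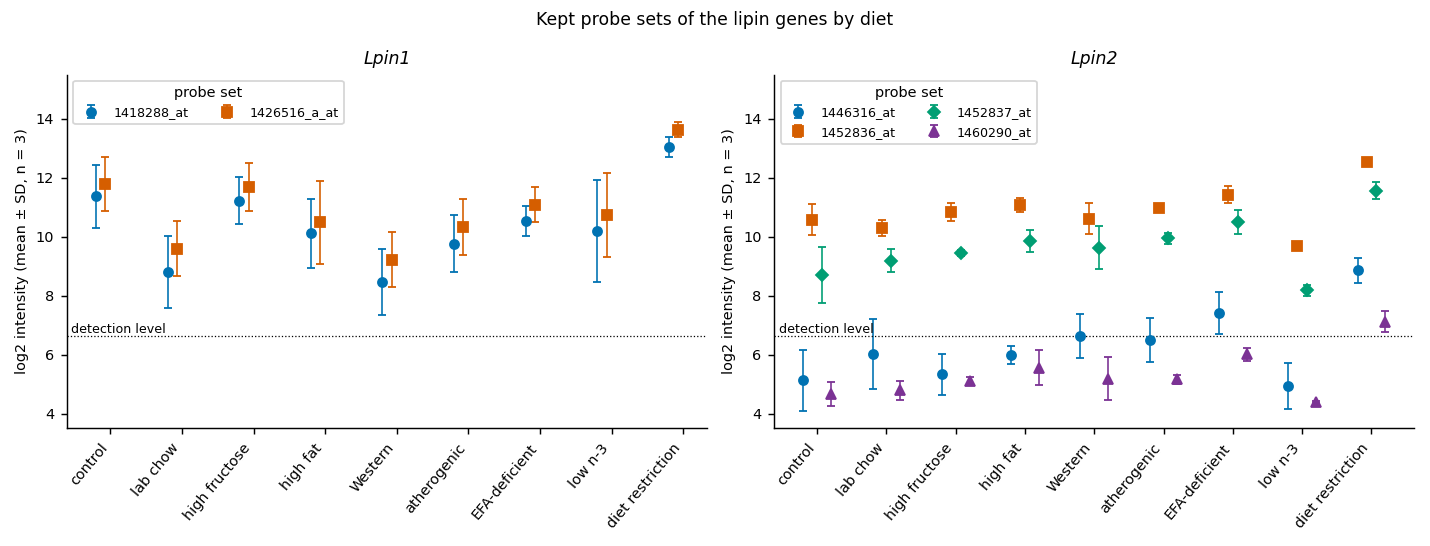
Mean log2 intensity ± SD (n = 3 arrays) of the 2 kept Lpin1 and 4 kept Lpin2 probe sets on 9 diets, with the detection level as a dotted line. Both Lpin1 probe sets are lowest on the Western diet, and all 4 Lpin2 probe sets are highest on diet restriction and next highest on the EFA-deficient diet.

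All 4 Lpin2 probe sets were called higher on diet restriction and on the EFA-deficient diet. Of these, 2 lay below the detection level on all 3 control arrays. The probe set of these 2 with the lower diet restriction values was below that level on 24 of 27 arrays. These included all EFA-deficient arrays (6.08, 5.77 and 6.20). It passed the level only on diet restriction (7.32, 6.70 and 7.33), so it was kept through the diet on which it rose. The second of these 2 was below the level on 17 of 27 arrays. Its mean passed the level only on diet restriction and the EFA-deficient diet, so it too was kept through diets on which it rose. The calls of these 2 probe sets therefore add no support. The remaining 2 probe sets were above the level on all 27 arrays. They were at 386% and 732% of control on diet restriction and at 180.2% and 350.0% on the EFA-deficient diet. The percents for the gene average all 4 and so depend on values below the detection level. The diet restriction call held in 20 of 20 alternatives. The EFA-deficient call held in 18 of 20 and was lost in the fit of the compared groups alone (adjusted p = 0.072) and with Dunnett's test (adjusted p = 0.056).

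On the high fat, Western and atherogenic diets Lpin2 was at 7.86, 8.55 and 7.94, at 7.30, 8.17 and 8.56 and at 8.35, 8.23 and 7.85. On each of the 3 diets at least 1 array lay below the highest control array, replicate 1. The percents of control were 180.2%, 167% and 184%, with adjusted p = 0.11, 0.17 and 0.10, and without control replicate 1 each passed the threshold (0.019, 0.032 and 0.017), as did the Western diet without Western replicate 1 (0.043). On the low n-3 diet Lpin2 was at 6.85, 6.55 and 7.01, the lowest mean of the 9 diets (72.3%, 44.9 to 117, adjusted p = 0.43), and 1 of its 4 probe sets was called lower. The high fructose arrays lay between 7.63 and 7.75, within the range of control.

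Mogat1 was not kept, and its single probe set was below the detection level on all 27 arrays. On the Western diet it was at 2.29, 3.998 and 5.57, and on control at 2.29, 2.83 and 2.29, where 2.29 is the lowest value on the arrays. The arrays of the other 7 diets lay between 2.29 and 2.66. Western replicates 2 and 3 were thus above all arrays of other diets, and Western replicate 1 was at the lowest value.

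Without the filter on low signal, over 18194 genes, Mogat1 had an adjusted p of 0.098 on the Western diet and was lower on the atherogenic than on the Western diet by a log2 difference of -1.63 (adjusted p = 0.033). Of the 7 adipocyte markers measured, Adipoq, Lep and Retn were at or near the lowest value on control and Western arrays, and 5 of the 7 were below the detection level on all arrays. Cidec, a lipid droplet protein of that list, was at 2.66, 4.497 and 6.02 on the same Western arrays, in the same order as Mogat1. On control it was at 2.73, 3.29 and 2.66. The share of probe sets at the lowest value was 37.7%, 36.9% and 34.9% on Western replicates 1, 2 and 3. Western replicate 3 had the lowest such share of all arrays and the highest median over all probe sets (2.48). The part of this array-wide difference in the Mogat1 and Cidec values was not tested.

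**Figure D4:**
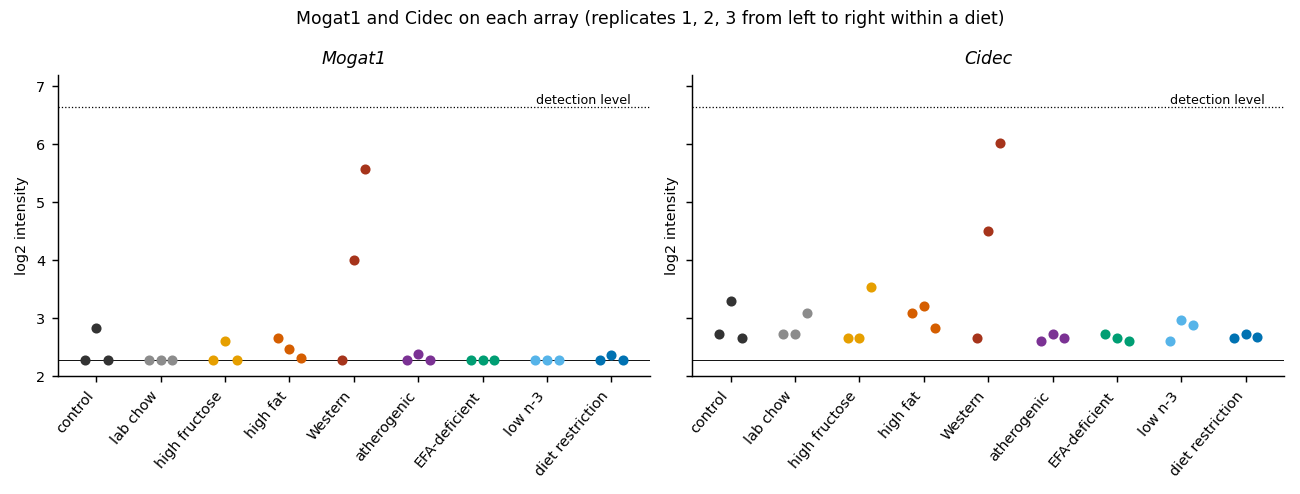
Log2 intensity (vertical axis) of Mogat1 and Cidec on each of 27 arrays, with the detection level dotted and the lowest value of the arrays as a solid line. Western replicates 2 and 3 stand highest for both genes, at 3.998 and 5.57 for Mogat1 and 4.497 and 6.02 for Cidec, and all points lie below the detection level.

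Dgat1, which also esterifies other acyl acceptors, was between 98.3% and 119% of control on the 8 diets with no call in the fit or in any alternative. Its control arrays were at 6.86, 6.98 and 6.92, close to the detection level of 6.64. The lowest array was atherogenic replicate 3 at 6.44 and the highest diet restriction replicate 1 at 7.42, and the neighbours in the order of diet means all overlapped. The intervals leave room for changes such as 94.9% to 148% on diet restriction.

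Dgat2, the enzyme tied most closely to triacylglycerol made from newly formed fatty acids, was at 10.09, 10.17 and 10.13 on control. It was at 9.67, 9.79 and 9.57 on the high fat diet, at 9.47, 9.86 and 9.72 on the atherogenic diet, at 9.98, 9.70 and 9.86 on the Western diet and at 9.81, 9.97 and 9.71 on lab chow. All of these 12 arrays lay below the lowest control array, yet none of the 4 diets passed the threshold. The values were 73.1% (57.1 to 93.5, adjusted p = 0.10), 73.3% (57.2 to 93.8, adjusted p = 0.11), 82.3% (adjusted p = 0.34) and 81.2% (adjusted p = 0.30) of control. The control arrays had the smallest SD of the 9 diets, at 0.04. Both Dgat2 probe sets gave like values, at 69.1% and 77.3% on the high fat diet.

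Against lab chow, its matched diet, diet restriction changed 5 of the 7 genes. In this comparison, adjusted on its own, 4 were called higher, or 57.1% of them, where 19.2% of all genes were, and 1 was called lower, or 14.3%, where 17.6% were. The median log2 difference of the 7 genes was 0.44 and that of all genes 0.01. Lpin1 was 1746% of lab chow (579 to 5265, adjusted p = 2.4e-04), with both probe sets called. Lpin2 was 543% (337 to 875, adjusted p = 6.8e-06), with all 4 called, though 2 of these were kept through diets on which they rose.

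Agpat2 was 33.9% of lab chow (26.5 to 43.4, adjusted p = 5.0e-07). Agpat3 was 136% (116 to 159, adjusted p = 0.0034), from 8.82, 8.80 and 8.87 on lab chow to 9.46, 9.19 and 9.17. Dgat2 was 137% (107 to 175, adjusted p = 0.044), from 9.81, 9.97 and 9.71 to 10.69, 10.10 and 10.04. Of the 3 Agpat3 probe sets 2 were called higher, and of the 2 Dgat2 probe sets only 1. In each of these 5 genes the arrays of the 2 diets did not overlap. The share of all genes without such overlap is not given here, so this adds no support to the calls. The adipocyte marker sums on lab chow, again mostly from Car3, were 71639 to 77019, with 1 of 2 markers called lower on diet restriction. Fabp4, the other kept adipocyte marker, had a median log2 intensity of 8.15 on lab chow and 8.45 on diet restriction. None of 7 Kupffer cell or 8 endothelial markers was called. Of 6 stellate cell markers 1 was called higher and 1 lower, and 2 of 9 hepatocyte markers were called higher. Beside these counts, 19.2% of all genes were called higher and 17.6% lower.

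Gpam was 96.7% of lab chow (65.7 to 142, adjusted p = 0.91) and Dgat1 111% (89.0 to 139, adjusted p = 0.47). The calls for Agpat2, Agpat3, Lpin1 and Lpin2 held in 17 of 17 alternatives. The Dgat2 call held in 8 of 17. It was lost without diet restriction replicate 1 (adjusted p = 0.29), the array at 10.69, without lab chow replicate 1 (0.094) or 3 (0.14), and with arrays centred on their medians (0.079).

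**Figure D5:**
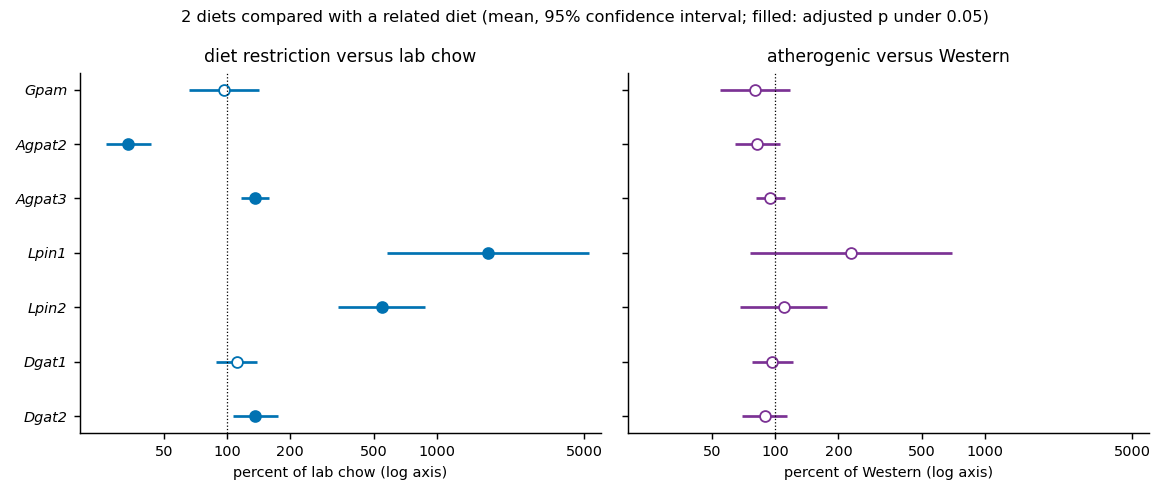
Percent of the second diet (horizontal log axis, 95% confidence interval, n = 3 arrays per diet) for 7 genes, with diet restriction set against lab chow on the left and the atherogenic diet against Western on the right, and with filled points for adjusted p under 0.05. On the left Agpat2 lies at 33.9% and Lpin1 at 1746%, and on the right all intervals include 100.

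The atherogenic and Western diets both hold much fat and sucrose, and the atherogenic diet adds cholic acid and holds much more cholesterol. None of the 7 genes was called between them in limma, where 11.3% of all genes were called higher and 6.50% lower on the atherogenic diet. None of the 7 had an unadjusted p under 0.05. Gpam was 80.1% of Western (54.4 to 118), Lpin1 230.1% (76.3 to 694) and Dgat2 89.0% (69.5 to 114). The arrays of the 2 diets overlapped for all 7 genes, and the intervals do not show that the diets act alike.

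The genes around this pathway, 65 from textbook lists, were measured for 62, and 42 were kept. Among those not kept were the related acyltransferases Gpat2, Gpat3, Agpat1 and Agpat4, the third lipin Lpin3, and Mogat2. Of the 42, 12 were higher and 9 lower on diet restriction, or 28.6% and 21.4% beside the 13.5% and 16.0% of all genes. Ppargc1a, the coactivator PGC-1alpha, was at least 4.30-fold higher than control (adjusted p = 2.4e-05), with all control arrays below the detection level. Its mean on diet restriction itself met the filter, and whether another diet also met it is not given here. The 12 genes called higher include it. Insig2, which holds SREBP in the endoplasmic reticulum, was 21.4% of control (adjusted p = 8.1e-07), Srebf1, the gene of SREBP-1, 37.2% (adjusted p = 0.0065), and choline kinase Chka at least 1.78-fold lower (adjusted p = 0.0012).

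Of the 4 other phosphatidate phosphatases tested, Plpp2 and Plpp5 were called higher on diet restriction, at 219% and 167% of control. Plpp1 and Plpp3 were not called. Agpat5, another lysophosphatidate acyltransferase, rose to 138%. Gpd1 and Gpd1l, which make glycerol 3-phosphate from a glycolytic intermediate, went opposite ways, at 65.0% and 229%. Against lab chow 12 of the 42 were higher and 7 lower, or 28.6% and 16.7% beside 19.2% and 17.6% of all genes. Ppargc1a was at least 4.30-fold higher (adjusted p = 7.6e-07), with the same limit from the filter. Insig2 was 30.9% of lab chow (adjusted p = 5.7e-06) and Chka at least 1.30-fold lower (adjusted p = 0.0015). The ethanolamine phosphotransferase Selenoi was 44.0% (adjusted p = 9.4e-08).

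On the Western diet 5 of the 42 rose and 5 fell, or 11.9% each way beside 4.31% and 4.48% of all genes, with Chpt1, which makes phosphatidylcholine from diacylglycerol, at 234% of control (adjusted p = 1.4e-04) and Insig1 at 36.0% (adjusted p = 0.0011). Ppara, a known partner of lipin 1, was at 219.6% (adjusted p = 2.4e-04). Ppargc1a was among the 5 called lower (adjusted p = 0.011), with all Western and control arrays below the detection level, so no size is given. On the high fat diet 6 rose and 0 fell, or 14.3% and 0% beside 6.00% and 3.33% of all genes, among them Ppara at 198% (adjusted p = 0.0010), Chpt1 at 182% (adjusted p = 0.0047), Lpgat1 at 166% (adjusted p = 0.0041) and Pcyt1a, which sets the pace of phosphatidylcholine synthesis, at 166% (adjusted p = 1.3e-04).

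On the atherogenic diet 9 of the 42 rose and 6 fell, or 21.4% and 14.3% beside 9.03% and 5.88% of all genes, with Chka at 308% of control (adjusted p = 0.047), Plpp2 at 239% (adjusted p = 6.5e-05), Mlxipl, the gene of ChREBP, at 211% (adjusted p = 0.0047) and the acyl-CoA synthetase Acsl5 at 45.7% (adjusted p = 0.0023). Against the Western diet 6 were higher and 7 lower, or 14.3% and 16.7% beside 11.3% and 6.50% of all genes, among them Plpp2 at 299% (adjusted p = 4.7e-06), Chpt1 at 38.4% (adjusted p = 3.7e-05), and Plpp3 at 46.9% (adjusted p = 2.3e-04). Ppargc1a was called higher (adjusted p = 0.020) with all arrays of both diets below the detection level, so no size is given. In the same comparison 7 of 7 kept Kupffer cell markers were called higher, with sums of 8528 to 15315 on the atherogenic and 1663 to 2616 on the Western arrays, and their part in these values was not tested.

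On the EFA-deficient diet 4 rose and 0 fell, or 9.52% and 0% beside 3.04% and 2.47% of all genes, namely Chka at 330.0% (adjusted p = 0.035), Acsl3 at 293% (adjusted p = 0.0052), Mlxipl at 187% (adjusted p = 0.017) and Pcyt1a at 140.3% (adjusted p = 0.0062). On the high fructose diet Chkb and the glucocorticoid receptor gene Nr3c1 fell to 75.7% (adjusted p = 0.039) and 69.7% (adjusted p = 0.042). On lab chow Pcyt1a rose to 149% (adjusted p = 0.0016), and on the low n-3 diet Selenoi fell to 73.6% (adjusted p = 0.018). Over the 8 diets the median log2 difference of the 42 genes lay between -0.07 and 0.12.

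The genes most like each member over the 27 arrays were found by Pearson correlation of gene values, as a description, since arrays of 1 diet share that diet and all arrays share their normalization. Gpam went most closely with Acly (r = 0.94), Acss2 (0.92) and Acacb (0.92), which provide acetyl-CoA and malonyl-CoA, and with Acly at r = 0.95 over the 24 arrays without diet restriction. Agpat2 went with Tjp3 (0.96), Smagp (0.94) and Slc30a10 (0.94), and these values fell to 0.50, 0.53 and 0.52 without diet restriction. Lpin1 went with Slc37a4, the glucose-6-phosphate transporter, Rxylt1 and St3gal5 (0.79 each), and Lpin2 with Ip6k2 (0.86), Ndel1 (0.85) and Ccn2 (0.84). Without diet restriction these values fell to 0.63, 0.73 and 0.63 for Lpin1 and to 0.77, 0.65 and 0.62 for Lpin2.

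Agpat3 went with Cryz (0.81), the lipid droplet protein gene Plin5 (0.80) and Fam102a (0.78), Dgat2 with Cops3 (0.79), Tiparp (0.76) and Mybbp1a (0.75), and Dgat1 with Atpsckmt (0.65), Ptges2 (0.64) and Zap70 (0.62). The 21 pairs of members had r from -0.68 for Agpat2 with Lpin2 to 0.58 for Lpin1 with Dgat2, and without diet restriction from -0.31 for Lpin2 with Dgat2 to 0.65 for Gpam with Dgat2.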

How the data were processed

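Liver RNA of 27 mice was measured on 1 array each, 3 per diet. The authors corrected and normalized the arrays with GCRMA, and deposited log2 intensities, which were taken without further scaling. The number of arrays limits the precision. Arrays were grouped by the diet in their labels. Probe sets took their symbol from the platform annotation, leaving out 932 that carry several and 9211 that carry none. As in the study's methods, a probe set entered when some diet mean exceeded log2(100), and such probe sets were averaged per gene. limma 3.58.1 (R 4.3.3) was fitted over all 27 arrays, with p-values two-sided and adjusted by Benjamini and Hochberg over 6478 genes and 8 diets together. Lab chow against diet restriction, and Western against atherogenic, came from that fit, each with its own adjustment. The fit was tested on simulated data. Intervals are 95% confidence intervals. Tables were made in Python 3.11.15 (pandas 2.3.3, numpy 2.4.6) and plots with matplotlib 3.10.9.

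Marker sums add the linear intensity of the brightest probe set of each marker on the array. The members and the gene lists (pathway steps and markers of hepatocytes, adipocytes, Kupffer cells, sinusoidal endothelium, stellate cells, bile duct and exocrine pancreas) were chosen with earlier results of these data known. Named genes are the members, at most 4 called genes of the pathway lists with the largest change in each comparison, and the 3 genes most correlated with each member. Other pathway genes and Cidec were named after their values were seen. Alternatives were the adjustment within each diet, filters, array weights, a fit of the compared groups alone, centring, a robust prior with a trend, quantile normalization, replicate number as a block, other probe averages, the study's Dunnett test per gene and with Benjamini-Hochberg adjustment added, a beta-actin covariate and leaving out each array.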

Additional observations from a re-analysis of the deposited data

Results flagged for a closer look

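Probe sets of these genes that stayed below the detection level on every array are outside the comparisons, and 6 of their diet means lay above the highest control array. Mogat1 averaged 3.95 on the Western diet (2.29 to 5.57), against a highest control array of 2.83. The Gpam probe set that was not kept averaged 5.24 on the high fructose diet and 5.21 on the EFA-deficient diet, against 4.70, which are the 2 diets on which the kept Gpam probe set rose. The unkept Agpat3 probe set averaged 5.94 on the high fat diet and 5.77 on diet restriction, where the highest control array was also at 5.77 after rounding. The unkept Dgat1 probe set averaged 2.54 on the high fructose diet, against 2.50, near the lowest value of the arrays. Of these, Mogat1 on the Western diet was tested without the filter on low signal (adjusted p = 0.098 in limma), and the others were not tested. Each is given on the log2 scale with n = 3 arrays.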

How the results depend on the processing

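Over 70 values of 7 genes in 10 comparisons no direction of a called gene turned. With 1 array left out, 396 values kept their side of the threshold, 17 lost a call and 7 gained one, and under the other alternatives 885 kept it, 25 lost a call and 18 gained one. The number of genes called changed as follows. On lab chow, 0 became 1 with a filter at log2(200) or the replicate block and 3 with array weights. On high fructose, 1 became 0 with p adjusted within each diet, the compared groups fitted alone, Dunnett's test with Benjamini-Hochberg adjustment (here Dunnett's test) or the beta-actin covariate. On high fat, 0 became 1 with the groups alone, the probe set with the highest mean or the mean of all probe sets, and 3 with array weights. On the Western diet, 2 became 0 with no filter, the groups alone, Dunnett's test or the beta-actin covariate, and 1 with the mean of all probe sets. On the atherogenic diet, 1 became 0 with the groups alone or Dunnett's test and 4 with array weights, and on EFA-deficient, 2 became 0 with the groups alone or Dunnett's test. On low n-3, 0 became 1 with array weights or the probe set with the highest mean, and atherogenic against Western went from 0 to 1 with no filter, which is Mogat1. On diet restriction, 2 became 3 with p adjusted within each diet or array weights, and against lab chow 5 became 4 with no filter, the groups alone, array weights, centring, quantile normalization or the beta-actin covariate. Leaving out 1 array gave 0 to 1 genes on lab chow, high fructose and high fat, 1 to 2 on Western, atherogenic and EFA-deficient, 0 to 0 on low n-3 and atherogenic against Western, 2 to 3 on diet restriction and 4 to 5 against lab chow. The cause of these changes was not tested. The labels do not say whether replicate numbers pair mice. Between diets, 108 pairs of arrays with the same number had a median correlation of deviations of 0.0032, with 30 pairs over 0.1. The 216 pairs with different numbers had a median of -0.0061, with 42 over 0.1. These correlations run over all genes, and pairing for single genes was not tested. With the replicate block the count changed on lab chow only. With 3 arrays per diet a change such as that of Lpin1 on lab chow lies near the threshold.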

Other observations

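The differences of Lpin1 between mice of the same diet went together with those of a few other genes. After the diet mean was subtracted from each array, the genes most correlated with Lpin1 over 27 arrays were Tcim (r = 0.82), Fkbp5 (0.79), St3gal5 (0.78), Pfkfb3 (0.76) and Susd6 (0.75), and the most opposed were Dlc1 (-0.80), Efna1 (-0.78) and Osgin1 (-0.76). Fkbp5 is a known target of the glucocorticoid receptor. These genes were picked as the extremes among 6478 after their values were seen, so the size of r is given as a description and no test was made. The mice were killed in the morning without prior fasting, and the hour of each mouse is not given in the sources used here. The part of the hour or of glucocorticoids in the spread of Lpin1 was not tested.

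The other marker lists gave these summed intensities over the 27 arrays. Sinusoidal endothelial markers, 8 of 8 kept, ranged from 1575 to 3774, and stellate cell markers, 6 of 8 kept, from 2014 to 7236, with the lowest sum of both on an atherogenic array. Adipocyte markers, 2 of 10 kept (Fabp4 and Car3), ranged from 24725 to 77994, hepatocyte markers, 9 of 10 kept, from 354122 to 438618, bile duct markers from 31.8 to 57.7 and exocrine pancreas markers from 24.6 to 32.2. Their part in the values of the glycerolipid genes was not tested.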
